A study of Mus musculus with 12 samples.

Results

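The genes described here encode the ligands, receptors, binding proteins and receptor adaptors of the FGF, IGF, PDGF and EGF systems, together with the angiopoietin, VEGF, HGF and apelin genes, in cultured mouse aortic endothelial cells that lack the transcription factors Ets1, Ets2 or both. Members were chosen by symbol: those starting with Fgf, Igf, Pdgfa, Pdgfb, Pdgfc, Pdgfd, Pdgfra, Angpt, Vegfb, Vegfc, Vegfd or Erbb, and Egfr, Hbegf, Areg, Ereg, Hgf, Met, Pgf, Apln and Grb10. The rule found 41 of the 11015 genes of the expression table, read by 76 of its 20523 probe sets, and each gene is given by its brightest probe set. They fall into 8 FGF, 12 IGF (with Grb10), 4 PDGF, 5 EGF, 5 angiopoietin, 4 VEGF and 3 HGF and apelin genes. Genes that the rule names but that are not among the 41, such as Areg, Pdgfb and Erbb4, were not analysed here. Because the rule goes by symbol, it also takes in genes that are not part of receptor signalling: Igf2bp1 and Igf2bp3 encode RNA-binding proteins named for the Igf2 transcript, Fgfr1op2 is named for a fusion partner of FGFR1, and Angptl4 and Angptl6 encode secreted angiopoietin-like proteins that do not bind the angiopoietin receptor Tie2.

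The cells came from aortas of mice aged 4 weeks and were grown in medium with serum, heparin and ECGS. Wild-type cells were Ets1+/+; Ets2+/+ and received a lentivirus carrying egfp. Ets1 null cells were Ets1-/-; Ets2fl/fl and received the same egfp virus, so they carry the loxP-flanked Ets2 allele that the wild-type cells lack. Ets2 null cells were Ets1+/+; Ets2fl/fl, and Ets1/2 null cells were Ets1-/-; Ets2fl/fl, and both received a lentivirus carrying egfp and Cre. Loss of Ets2 and exposure to Cre therefore cannot be told apart, and the share of cells that recombined Ets2 is not given in the sources used here. The labels conflict for the single nulls: titles and genotypes call them null, while the description of Ets1 null arrays names Ets1 as wild type and that of Ets2 null arrays names Ets2 so. Titles and genotypes were followed here. Each group has 3 arrays labelled as biological replicates. Whether they stand for separate animals is not given, so p-values measure the spread between these arrays, which may be partly technical. The third Ets1/2 null column equals the mean of the other 2 in 20521 of 20523 probe sets (within 1e-06 on the log2 scale) and was left out, which leaves 11 arrays and n = 2 in that group.

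FGF, IGF, PDGF, EGF and HGF ligands bind receptor tyrosine kinases (FGFR, IGF1R, PDGFR, the EGFR and ERBB family, and MET) that recruit adaptors and switch on the RAS-ERK and PI3K-AKT routes. Heparan sulfate chains present FGFs to their receptors, IGF-binding proteins hold IGFs in the extracellular space, and IGF2R clears IGF2. In the vessel wall, endothelial PDGF recruits mural cells, angiopoietins act through Tie2, and VEGF ligands and apelin act on endothelial receptors. Phosphorylation by ERK activates Ets1 and Ets2, which places them downstream of these receptors. ETS factors bind DNA at a GGAA core.

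Sequences of 5 promoters are shown because they belong to members on which the results turn: Fgfrl1, Igf2r and Fgfbp3 hold a match to an ETS-type motif, and Grb10 and Fgf7, which had the largest called differences from a null or wild-type group, do not. These promoters were picked after the values were seen. Each is the 250 bases before the annotated gene start on the gene's own strand (RefSeq, GRCm38.p6). Capitals mark a match to CGGAAGT or AGGAAGT on either strand, so that ACTTCCG and ACTTCCT are matches on the other strand. The windows are Fgfrl1 at chr5:108693979-108694228 (plus strand), Igf2r at chr17:12769707-12769956 (minus), Fgfbp3 at chr19:36919600-36919849 (minus), the first of 2 Grb10 windows at chr11:12037421-12037670 (minus) and Fgf7 at chr2:126034408-126034657 (plus).
Fgfrl1: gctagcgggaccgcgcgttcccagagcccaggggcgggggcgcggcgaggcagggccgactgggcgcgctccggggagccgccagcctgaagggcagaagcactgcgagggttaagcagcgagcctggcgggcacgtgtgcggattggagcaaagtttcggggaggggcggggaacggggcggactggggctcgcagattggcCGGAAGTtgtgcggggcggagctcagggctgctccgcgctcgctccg
Igf2r: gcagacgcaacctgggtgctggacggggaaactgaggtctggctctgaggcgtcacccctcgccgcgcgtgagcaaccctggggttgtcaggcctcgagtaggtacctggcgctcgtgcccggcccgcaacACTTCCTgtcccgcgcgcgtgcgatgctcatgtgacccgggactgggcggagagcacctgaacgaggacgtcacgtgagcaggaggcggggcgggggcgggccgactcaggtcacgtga
Fgfbp3: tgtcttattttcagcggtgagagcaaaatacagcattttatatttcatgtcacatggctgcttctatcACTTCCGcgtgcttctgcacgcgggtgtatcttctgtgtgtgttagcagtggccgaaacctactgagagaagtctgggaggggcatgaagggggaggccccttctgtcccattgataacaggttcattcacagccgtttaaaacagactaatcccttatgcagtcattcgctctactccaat
Grb10: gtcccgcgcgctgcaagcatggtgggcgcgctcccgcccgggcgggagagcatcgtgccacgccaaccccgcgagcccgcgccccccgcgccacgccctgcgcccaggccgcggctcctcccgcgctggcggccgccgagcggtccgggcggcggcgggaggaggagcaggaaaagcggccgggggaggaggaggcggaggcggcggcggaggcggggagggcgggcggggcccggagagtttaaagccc
Fgf7: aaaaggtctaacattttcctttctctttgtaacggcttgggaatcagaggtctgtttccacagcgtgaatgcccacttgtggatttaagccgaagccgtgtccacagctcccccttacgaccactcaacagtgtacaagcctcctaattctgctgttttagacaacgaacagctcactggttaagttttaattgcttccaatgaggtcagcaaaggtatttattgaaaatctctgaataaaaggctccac
The match begins 47 bases before the start in Fgfrl1, 119 in Igf2r and 182 in Fgfbp3. In the full windows of 300 bases, which add 50 bases after the start, 33 of the 41 members had at least 1 window. Either motif occurred in 7 of 43 member windows (16.3%) and in 4962 of 32851 windows of all genes (15.1%). The member genes with a match were Fgfrl1, Igf2r, Fgfbp3, Erbb2, Hgf and Igfals. A match is a description of the letters, not a measured binding site.

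All values are log2 intensities. Levels are given as centred values, each array's value minus that array's median over the 11015 genes, because the 2 arrays labelled Ets1/2 null have medians of 8.69 and 8.73 in the deposited values against 9.37 to 9.5 in the others. A difference is tested with limma across all genes, and "called" means a Benjamini-Hochberg adjusted p under 0.05 over all 11015 genes. The labels were checked on the deleted genes. Centred Ets1 values were 0.89, 0.41 and 0.56 in the wild-type arrays, -1.16, -0.70 and -0.32 in those of Ets1 null, and 0.09, 0.16 and 0.43 in those of Ets2 null. Ets1 read 1.29 and 1.60 in the arrays labelled Ets1/2 null. These 2 centred values lie above every wild-type array and go against their label, while the deposited values (10.02 and 10.29) overlap wild type (9.84 to 10.26). The 4 Ets1 probe sets disagree in these arrays. The probe set that goes with the label read -2.25 and -1.64, below -0.68, -0.65 and -0.67 in wild type. Another read 1.08 and 1.12, above 0.71, 0.24 and 0.23 in wild type, and the last read -1.33 and -0.71, to either side of wild type (-1.21 to -1.02). Ets2 in Ets2 null differed from wild type by -0.43 ± 0.35 (SE, adjusted p = 0.544). In the arrays labelled Ets1/2 null it read 2.28 and 0.94, against 0.35, 0.58 and 1.21 in wild type. As a group these centred values were not lower, which also goes against their label. The deposited values were 11.02 and 9.63, the latter below every wild-type array (9.72 to 10.70). Centred Ets2 in the arrays labelled Ets1/2 null differed by 0.90 ± 0.40 from wild type (adjusted p = 0.121) and by 0.69 ± 0.40 from Ets1 null (adjusted p = 0.224). It differed by 1.33 ± 0.40 from Ets2 null (adjusted p = 0.0325). The second Ets2 probe set read -0.37 and -1.66 in the arrays labelled Ets1/2 null and -1.76 to -1.33 in wild type. Where the probes lie relative to the deleted parts of either gene was not analysed here. Eif2s3y, a Y-linked gene, read above 6 (deposited log2) in wild type 1 and in each of the 3 Ets2 null arrays, and in no other. Of 30 endothelial markers 11 were on the table, and the defining markers Pecam1, Cdh5, Tek, Tie1 and Vwf were not analysed here. The mean centred value of those 11 lay from -0.99 to -0.26 in the wild-type arrays, -1.66 to -1.39 in those of Ets1 null, -0.06 to 0.34 in those of Ets2 null and -1.45 to -0.99 in the arrays labelled Ets1/2 null. The same mean for 5 of 15 epithelial and mesothelial markers lay from -2.09 to -0.23, -0.22 to 0.16, -1.65 to -1.33 and -0.33 to -0.20. For 17 of 20 fibroblast markers, which include Pdgfra, it lay from 0.90 to 1.48, 0.24 to 0.86, 0.56 to 1.71 and 0.97 to 2.02 in the same order of groups. For 13 of 20 smooth muscle and pericyte markers it lay from -1.27 to -0.04, -1.40 to -0.46, -1.11 to -0.39 and -1.07 to 0.36, and for 9 of 20 leukocyte markers from -2.16 to -1.73, -2.08 to -1.96, -2.45 to -2.14 and -2.17 to -1.88. In bulk RNA, fewer cells of a type and less RNA per cell cannot be told apart, and the part of these markers in the results below was not tested.

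Across the 11 arrays the span of a member (highest minus lowest centred log2 value) ran from 0.25 in Fgfr4 to 7.77 in Grb10. It was under 1 in 7 members, over 3 in 13 and over 5 in 6. Of those 7, Fgf4, Fgfr4, Igf2 and Igfals had highest deposited values of 6.98, 7.56, 7.07 and 7.15, while Erbb2 reached 9.31. The members with the widest spans were Grb10, Igfbp3, Angpt1, Hbegf, Fgf7 and Igfbp4.

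**Figure D1:**
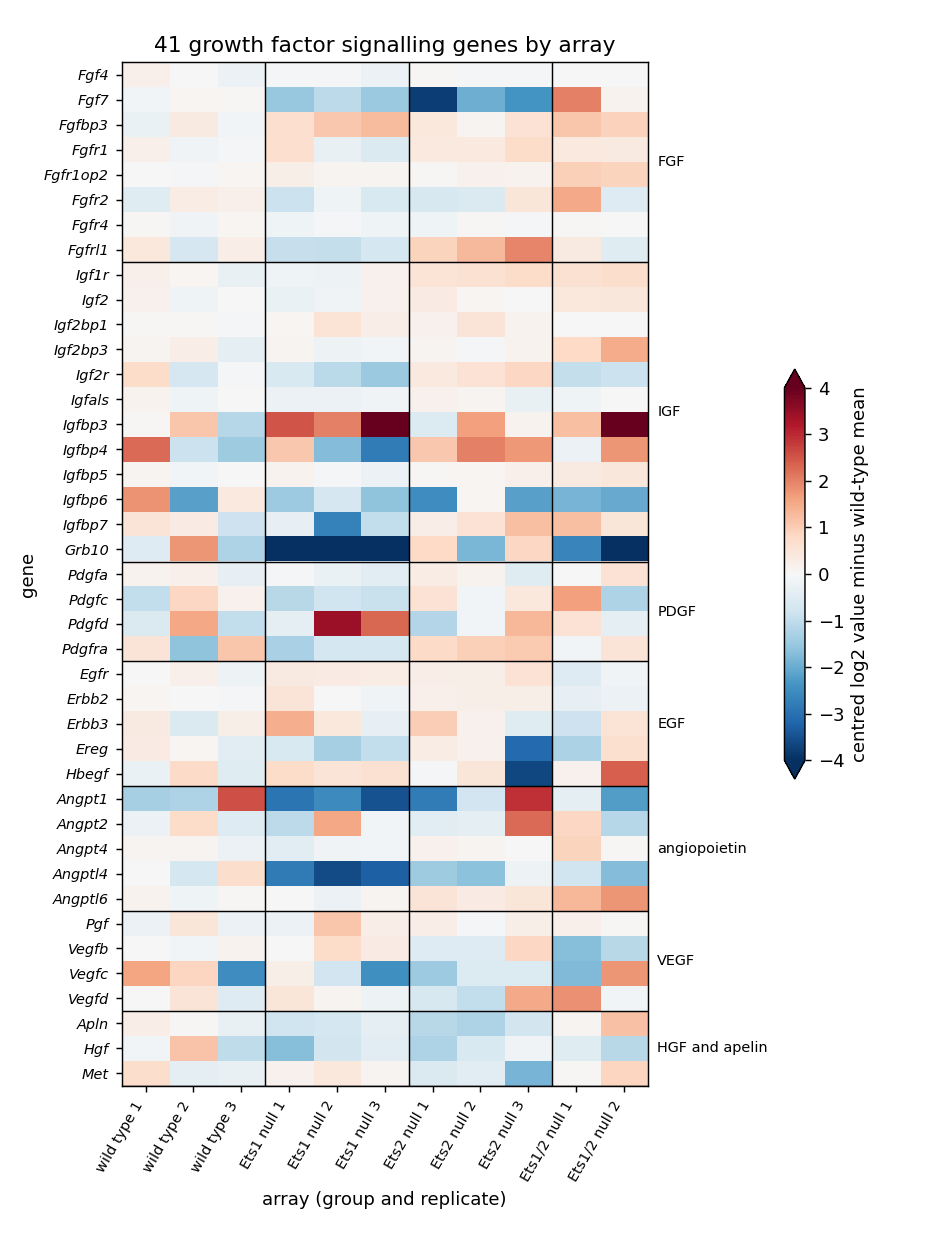
Centred log2 value minus the wild-type mean for the 41 members (rows, by family) in the 11 arrays (columns, by group); red is higher and blue lower, and the colour scale ends at 4 on either side. Grb10 is dark blue in all Ets1 null arrays and in the arrays labelled Ets1/2 null, and most rows of low-level members are nearly white.

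Loss of Ets1 alone gave no called member, although several members stood apart from wild type. The widest difference was in Grb10, an adaptor that binds the insulin and IGF1 receptors and damps their signal, followed by Angptl4, Angpt1 and Igfbp3. Of the 41 members 0 were called, against 0.00908% of all genes (1 gene); at an unadjusted p under 0.05, 9 members (22.0%) and 8.71% of genes were counted, and 2 members were called when limma weighted the arrays, with 1.42% of genes. Between Ets1 null and wild type, all arrays of one group lay above all of the other in 12 members, 29.3% of them, against 18.5% of all genes. The median difference was -0.12 over members and -0.03 over all genes.

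Loss of Ets2 alone also gave 0 called members, with 0.436% of all genes called. The widest difference was in Fgf7, a ligand made by mesenchymal cells that acts on an epithelial form of Fgfr2, and Apln and Fgfrl1 also separated from wild type. At an unadjusted p under 0.05, 7 members (17.1%) and 18.9% of genes were counted, and 4 members were called with array weights, with 9.85% of genes. The groups did not overlap in 10 members, 24.4% against 26.9% of all genes. The median difference was 0.09 over members and -0.01 over all genes. All 3 Ets2 null arrays are male by Eif2s3y, as stated above, and only 1 wild-type array is.

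In the arrays labelled Ets1/2 null, 7 members were called against wild type, 5 higher and 2 lower. Angptl6, Fgfr1op2, Igf2bp3, Fgfbp3 and Igf1r were higher, and Grb10 and Vegfb were lower. That is 17.1% of members against 28.3% of all genes in either direction (16.4% of genes higher and 12% lower), so calls were no more frequent among members than on the table as a whole. In the deposited, uncentred values 11 members were called (1 higher and 10 lower), with 45.9% of genes called (2.32% higher and 43.6% lower), since the deposited median gene difference was -0.61. Grb10, Vegfb and Angptl6 were called in the same direction in both sets of values, 3 members (7.32%) against 14.3% of genes. The groups did not overlap in 15 members, 36.6% against 52.3% of all genes, and the median centred difference was 0.20 over members and 0.11 over all genes.

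**Figure D2:**
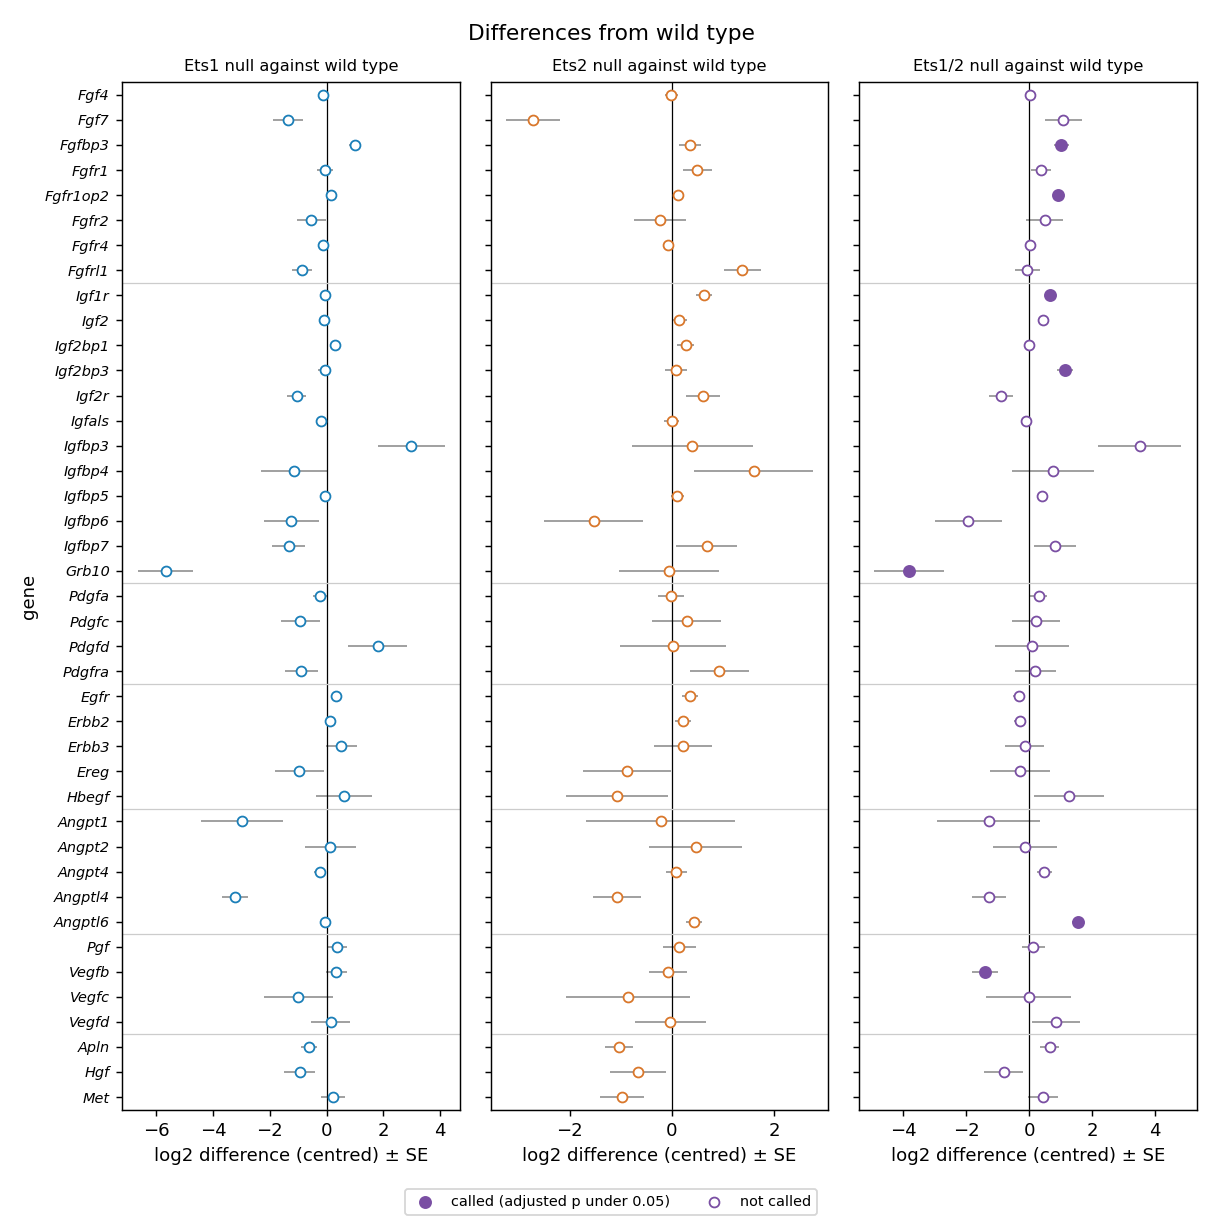
Difference from wild type in centred log2 values (x axis, with SE bars; the 3 panels have different scales) for the 41 members (rows) in Ets1 null, Ets2 null and the arrays labelled Ets1/2 null; filled points were called by limma. Filled points appear only in the third panel, at 5 members above 0 and at Grb10 and Vegfb below it.

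Among the IGF genes, the centred values of Grb10 were 1.06, 3.32 and 0.32 in the wild-type arrays, -4.45, -4.45 and -3.40 in those of Ets1 null, and 2.37, -0.26 and 2.41 in those of Ets2 null. Grb10 read -1.08 and -3.41 in the arrays labelled Ets1/2 null. Every array with the Ets1-/- label lay below every array without it. Against wild type the difference was -5.67 ± 0.98 (SE; 95% interval -7.88 to -3.46) in Ets1 null, which did not pass after adjustment (limma adjusted p = 0.171), and was called with array weights (-6.49, adjusted p = 0.0265). In the arrays labelled Ets1/2 null Grb10 fell by 3.82 ± 1.10 (adjusted p = 0.030) against wild type and by 3.75 (adjusted p = 0.0302) against Ets2 null. The call against wild type was lost without wild type 1 (-4.07, adjusted p = 0.0522), wild type 2 (-2.94, 0.0750) or Ets1/2 null 2 (-2.65, 0.20), and that against Ets2 null without Ets2 null 1 (-3.32, 0.0859), Ets2 null 3 (-3.30, 0.0714) or Ets1/2 null 2 (-2.58, 0.196). A second Grb10 probe set differed by -2.49 in Ets1 null and, in the arrays labelled Ets1/2 null, by -2.91 (limma adjusted p = 0.0271 over all probe sets), and the third by -1.21 and -0.70. Msln, a mesothelial marker, read 5.06, 5.90 and 10.09 (deposited log2) in wild type, 9.91, 10.36 and 10.06 in those of Ets1 null, and 4.93, 4.41 and 4.90 in those of Ets2 null. Msln read 9.88 and 6.82 in the arrays labelled Ets1/2 null. Msln belongs to the 5 epithelial and mesothelial markers on the table. Of these, 3 were higher and 2 lower in Ets1 null than in wild type, with a median difference of 0.11. The part of Msln in the Grb10 difference was not tested.

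The receptors Igf2r and Igf1r showed different patterns. Igf2r read 2.93, 1.52 and 2.13 in the wild-type arrays, 1.59, 1.12 and 0.72 in those of Ets1 null, and 2.60, 2.79 and 3.03 in those of Ets2 null. Igf2r read 1.24 and 1.35 in the arrays labelled Ets1/2 null. The last 2 lay below all Ets2 null arrays, a difference of -1.51 ± 0.38 (adjusted p = 0.0176) that was called in the deposited values too, while the differences from wild type were -1.06 ± 0.34 in Ets1 null (adjusted p = 0.474) and -0.90 ± 0.38 in the arrays labelled Ets1/2 null (adjusted p = 0.110). The call against Ets2 null was lost without Ets1/2 null 1 (-1.45, 0.0776) or Ets1/2 null 2 (-1.57, 0.0643). The second Igf2r probe set gave -0.88 (Ets1 null), 0.82 (Ets2 null) and -0.90 against wild type. Igf1r, the signalling receptor for IGF1 and IGF2, read 1.38, 1.27 and 0.88 in the wild-type arrays, 1.02, 0.99 and 1.34 in those of Ets1 null, and 1.73, 1.78 and 1.90 in those of Ets2 null. Igf1r read 1.80 and 1.88 in the arrays labelled Ets1/2 null. Igf1r was higher in the last group than in wild type by 0.67 ± 0.18 (adjusted p = 0.0235), but the deposited difference was -0.05, so that its direction rests on the centring. That call was also lost without Ets1/2 null 1 (0.70, 0.0656) or Ets1/2 null 2 (0.63, 0.102), and its other probe sets gave 2.04 (adjusted p = 0.000355 over all probe sets) and -0.38 (adjusted p = 0.0867 likewise).

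The IGF-binding proteins varied widely within groups. Igfbp3, which binds most circulating IGF, read -1.67, -0.59 and -2.86 in the wild-type arrays, 0.81, 0.29 and 2.69 in those of Ets1 null, and -2.26, -0.06 and -1.58 in those of Ets2 null. Igfbp3 read -0.50 and 4.13 in the arrays labelled Ets1/2 null. In these centred values all arrays labelled Ets1-/- lay above all wild-type arrays. In the deposited values Ets1/2 null 1 (8.23) lay below wild type 2 (8.84). The centred differences of 2.97 ± 1.18 (Ets1 null, adjusted p = 0.560) and 3.52 ± 1.32 (Ets1/2 null, adjusted p = 0.0761) did not pass. The second Igfbp3 probe set gave 4.32 in the arrays labelled Ets1/2 null (adjusted p = 0.0284 over all probe sets), and the first gave 5.83 without Ets1/2 null 1 (adjusted p = 0.0133) and 1.21 without Ets1/2 null 2 (0.522). Igfbp6, which prefers IGF2, read 1.13, -2.85 and -0.28 in the wild-type arrays, -2.12, -1.33 and -2.27 in those of Ets1 null, and -3.14, -0.60 and -2.84 in those of Ets2 null. Igfbp6 read -2.54 and -2.68 in the arrays labelled Ets1/2 null. Wild-type arrays overlapped every other group, and none of the differences (-1.24 ± 0.96, -1.53 ± 0.96 and -1.94 ± 1.07) passed; the last was -3.04 without wild type 2 (adjusted p = 0.0343) and -1.05 without wild type 1 (0.480). Igfbp4, an inhibitor of IGF action that Pappa proteases cut, read 5.18, 2.06 and 1.5 in the wild-type arrays, 4.00, 1.16 and 0.12 in those of Ets1 null, and 3.98, 4.92 and 4.64 in those of Ets2 null. Igfbp4 read 2.68 and 4.69 in the arrays labelled Ets1/2 null. Its wild-type and Ets1 null arrays overlapped every other group, and the largest difference from wild type by this probe set was 1.60 ± 1.16 in Ets2 null (adjusted p = 0.482). In the arrays labelled Ets1/2 null its other probe sets differed from wild type by -2.55 to 0.66, none called, against 0.77 from the brightest. The lowest of these differed by -4.30 from Ets2 null (limma adjusted p = 0.0588 over all probe sets), against -0.83 from the brightest. Igfbp7, a matrix protein of blood vessels that binds IGF weakly, read 4.04, 3.87 and 2.72 in the wild-type arrays, 3.20, 0.85 and 2.56 in those of Ets1 null, and 3.82, 4.12 and 4.73 in those of Ets2 null. Igfbp7 read 4.73 and 4.01 in the arrays labelled Ets1/2 null. It was called against Ets1 null (2.16 ± 0.66, adjusted p = 0.0369) in the centred values and not in the deposited values (1.40, adjusted p = 0.114), and the call was lost without wild type 2, Ets1 null 2 or 3, Ets2 null 1 or 2, or Ets1/2 null 1 or 2 (1.49 to 2.53). The Igfbp7 probe sets disagreed in the arrays labelled Ets1/2 null. The dimmest differed by 2.27 from wild type (limma adjusted p = 0.0467 over all probe sets) and by 3.15 from Ets1 null (0.013 likewise). The remaining probe set gave 0.01 and 0.08.

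Of the other IGF members, Igf2bp3 read -1.74, -1.58 and -2.24 in the wild-type arrays, -1.75, -2.05 and -1.97 in those of Ets1 null, and -1.73, -1.90 and -1.70 in those of Ets2 null. Igf2bp3 read -1.04 and -0.38 in the arrays labelled Ets1/2 null. The last group lay above the other groups, by 1.14 ± 0.24 against wild type (adjusted p = 0.00885), a call lost in the deposited values (0.42, adjusted p = 0.159) and without Ets1/2 null 2 (0.81, 0.0676); its other 3 probe sets gave 0.34 to 0.99, none called. Igfbp5 was called only in the arrays labelled Ets1/2 null against Ets1 null (0.46 ± 0.14, adjusted p = 0.0412), and the deposited difference was -0.30; the call was lost without wild type 1 or 2, Ets1 null 2 or 3, Ets2 null 1 or 2, or Ets1/2 null 1 or 2 (0.37 to 0.51). Igf2, Igf2bp1 and Igfals spanned 0.47 to 0.70 over all arrays and were not called in any comparison of the centred values.

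Among the FGF genes, Fgf7 read 1.06, 1.23 and 1.20 in the wild-type arrays, -0.36, 0.10 and -0.32 in those of Ets1 null, and -2.62, -0.80 and -1.23 in those of Ets2 null. Fgf7 read 3.18 and 1.31 in the arrays labelled Ets1/2 null. In these centred values both single-null groups lay below wild type without overlap, and the arrays labelled Ets1/2 null lay above every other array. The deposited value of Ets1/2 null 2 (10.00) lay below every wild-type array (10.42 to 10.70). In the second Fgf7 probe set that array also lay below wild type (0.17 against 0.72 to 0.84, centred). Against wild type the differences were -1.35 ± 0.53 in Ets1 null (adjusted p = 0.547), -2.71 ± 0.53 in Ets2 null (95% interval -3.90 to -1.52, adjusted p = 0.0587) and 1.08 ± 0.59 in the arrays labelled Ets1/2 null (adjusted p = 0.204). The second Fgf7 probe set gave -2.35 in Ets2 null and passed (adjusted p = 0.0365 over all probe sets), and the first passed with array weights (-2.58, adjusted p = 0.0210). Against the single nulls Fgf7 rose in the arrays labelled Ets1/2 null, by 2.43 ± 0.59 against Ets1 null (adjusted p = 0.0156) and by 3.79 ± 0.59 against Ets2 null (adjusted p = 0.00222), in deposited values as well. Without Ets1/2 null 1 the first of these was 1.5 (adjusted p = 0.108).

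The receptor gene Fgfrl1, whose protein binds FGF but has no kinase domain, read 2.53, 1.46 and 2.39 in the wild-type arrays, 1.19, 1.18 and 1.43 in those of Ets1 null, and 3.02, 3.43 and 4.06 in those of Ets2 null. Fgfrl1 read 2.48 and 1.65 in the arrays labelled Ets1/2 null. Ets1 null arrays lay below and Ets2 null arrays above all wild-type arrays, with differences of -0.86 ± 0.36 (adjusted p = 0.562) and 1.38 ± 0.36 (adjusted p = 0.105), the latter called with array weights (1.42, adjusted p = 0.0197). Its second probe set gave -0.91 and 1.51. The arrays labelled Ets1/2 null differed from Ets2 null by -1.43 ± 0.40 (adjusted p = 0.0251), a call lost without Ets2 null 2 (-1.47, 0.0549), Ets2 null 3 (-1.15, 0.0568) or Ets1/2 null 2 (-1.02, 0.164). Igf2r showed the same order of group means, lower in Ets1 null and higher in Ets2 null than in wild type. Both promoters hold a motif match, as do those of Erbb2, Hgf and Igfals, which were not called in any comparison of the centred values. The promoter of Fgfbp3 holds a match too, and its difference in Ets1 null went the other way (1.0 ± 0.22, not called). Members without a listed match had the order of Fgfrl1 and Igf2r as well. Among them were Pdgfra (-0.90 in Ets1 null and 0.93 in Ets2 null), Igfbp4 (-1.15 and 1.60), Igfbp7 (-1.34 and 0.68) and Pdgfc (-0.93 and 0.29), none called. For 8 of the 41 members there was no window to search.

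Fgfbp3, which encodes a carrier that frees FGFs from the matrix, read -3.33, -2.70 and -3.17 in the wild-type arrays, -2.41, -1.98 and -1.81 in those of Ets1 null, and -2.66, -2.95 and -2.5 in those of Ets2 null. Fgfbp3 read -1.95 and -2.14 in the arrays labelled Ets1/2 null. All arrays labelled Ets1-/- lay above wild type, by 1.0 ± 0.22 in Ets1 null (adjusted p = 0.274) and 1.02 ± 0.24 in the arrays labelled Ets1/2 null (adjusted p = 0.0140), but the latter was 0.30 (adjusted p = 0.365) in deposited values and 0.92 (0.0722) without Ets1/2 null 1. Fgfr1op2 read 1.41, 1.33 and 1.47 in the wild-type arrays, 1.63, 1.51 and 1.5 in those of Ets1 null, and 1.45, 1.57 and 1.55 in those of Ets2 null. Fgfr1op2 read 2.35 and 2.28 in the arrays labelled Ets1/2 null. It was higher in the last group by 0.91 ± 0.12 (adjusted p = 0.00128), with a deposited difference of 0.19 (adjusted p = 0.248) and -0.01 from its second probe set. The receptors Fgfr1, Fgfr2 and Fgfr4 and the ligand Fgf4 were not called by their brightest probe sets in any comparison of centred values, with differences from wild type between -0.54 and 0.50. For Fgfr1 the probe sets disagreed: the second brightest fell by 4.19 in the arrays labelled Ets1/2 null (adjusted p = 0.000106 over all probe sets) and the third rose by 0.81 (adjusted p = 0.0209 likewise), against 0.38 from the brightest.

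**Figure D3:**
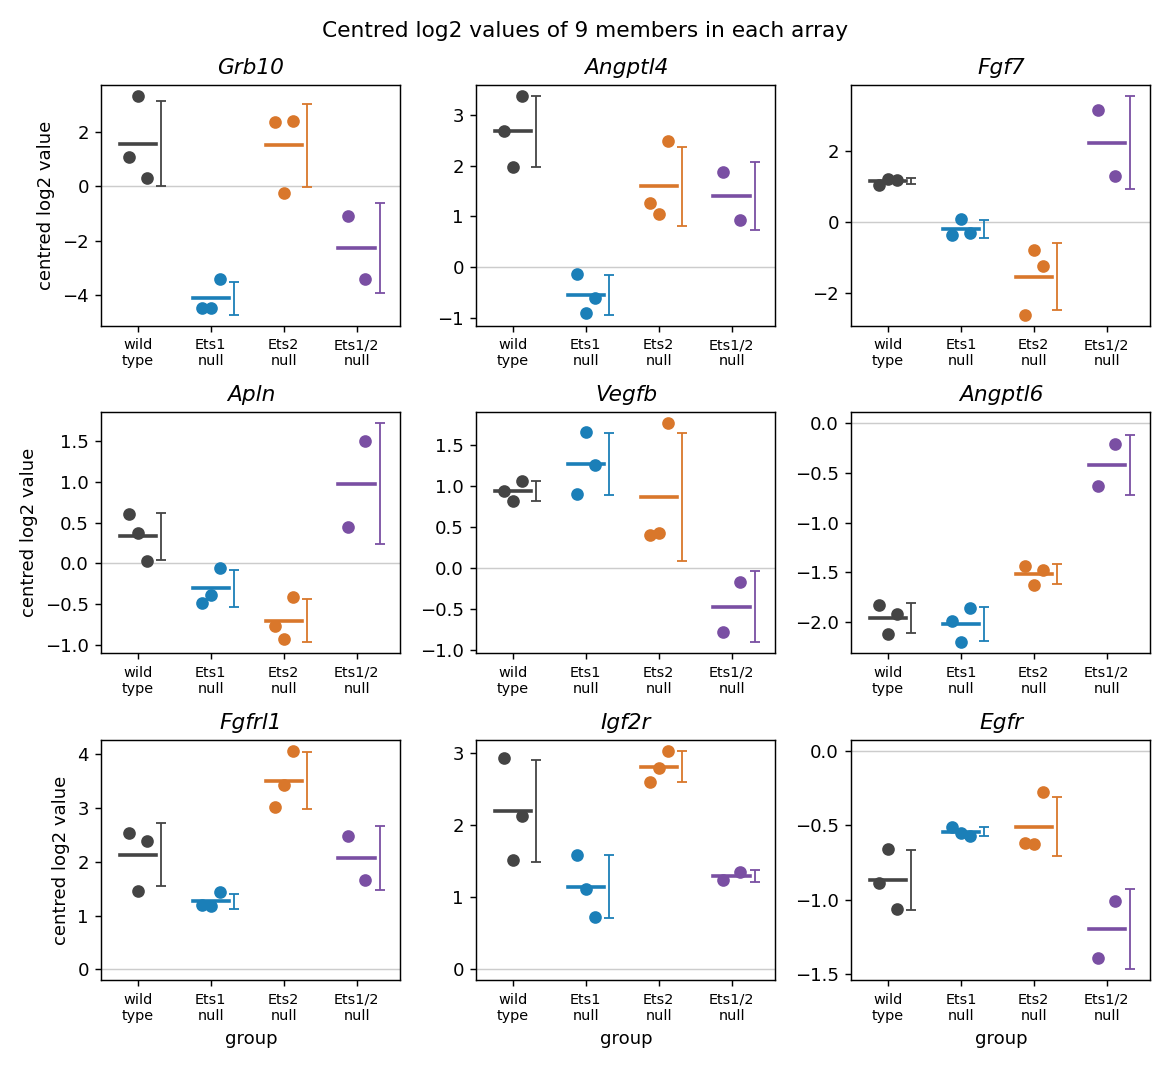
Centred log2 value (y axis, different scale in each panel) of 9 members in each array of the 4 groups; a horizontal line is the group mean and the bar beside it the SD (n = 3, and n = 2 for the arrays labelled Ets1/2 null). Grb10 is low in both groups labelled Ets1-/-, and Fgfrl1 and Igf2r have their highest mean in Ets2 null. Fgf7 is low in both single nulls and has its highest mean in the arrays labelled Ets1/2 null.

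The PDGF genes gave no call by their brightest probe sets in any comparison of the centred values. Pdgfd, a ligand of PDGFR-beta, read -4.50, -2.36 and -4.88 in the wild-type arrays, -4.26, -0.50 and -1.60 in those of Ets1 null, and -5.08, -4.01 and -2.57 in those of Ets2 null. Pdgfd read -3.34 and -4.31 in the arrays labelled Ets1/2 null. Its Ets1 null values overlapped wild type and differed by 1.79 ± 1.04 (adjusted p = 0.644). Pdgfra, the receptor of mesenchymal cells, lay between 1.10 and 3.82 over all arrays, and its differences from wild type were -0.90 ± 0.58, 0.93 ± 0.58 and 0.20 ± 0.65. Pdgfa and Pdgfc, both ligands of PDGFR-alpha, differed from wild type by between -0.93 and 0.30. Other probe sets did pass in the arrays labelled Ets1/2 null. A second Pdgfra probe set differed by -2.16 from wild type (adjusted p = 0.0445 over all probe sets) and by -2.76 from Ets2 null (adjusted p = 0.0173 likewise), against 0.20 and -0.73 from the brightest. The second Pdgfa probe set differed by 1.12 from Ets1 null (adjusted p = 0.00812 likewise) and by 0.79 from Ets2 null (adjusted p = 0.034 likewise), against 0.54 and 0.32.

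Among the EGF genes, Egfr read -0.89, -0.66 and -1.06 in the wild-type arrays, -0.51, -0.55 and -0.57 in those of Ets1 null, and -0.62, -0.63 and -0.28 in those of Ets2 null. Egfr read -1.39 and -1.01 in the arrays labelled Ets1/2 null. It fell in the arrays labelled Ets1/2 null by 0.66 ± 0.18 against Ets1 null (adjusted p = 0.0250) and by 0.69 ± 0.18 against Ets2 null (adjusted p = 0.0198), in deposited values as well, while the difference from wild type was -0.33 ± 0.18 (adjusted p = 0.202). Without Ets1/2 null 1 the differences from the single nulls were -0.47 (adjusted p = 0.153) and -0.50 (0.124), and the call against Ets1 null was also lost without Ets1 null 1, 2 or 3 (-0.64, -0.66 and -0.67, adjusted p from 0.0592 to 0.0630). Its other 4 probe sets gave differences of -1.49 to 0.21 against Ets1 null. Hbegf, a membrane-bound EGFR ligand that is released by proteases, read 1.07, 2.11 and 0.88 in the wild-type arrays, 2.08, 1.88 and 1.95 in those of Ets1 null, and 1.31, 1.83 and -2.28 in those of Ets2 null. Hbegf read 1.52 and 3.75 in the arrays labelled Ets1/2 null. Its Ets2 null difference of -1.07 ± 0.99 rests on Ets2 null 3, without which it was 0.21, and the difference in the arrays labelled Ets1/2 null was 1.28 ± 1.11 (adjusted p = 0.418). Ereg, another EGFR ligand, Erbb2, the co-receptor of the family, and Erbb3, a neuregulin receptor, were not called in the centred values, with differences from wild type between -0.97 and 0.52.

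In the angiopoietin group, Angptl4, an inhibitor of lipoprotein lipase, read 2.69, 1.97 and 3.37 in the wild-type arrays, -0.14, -0.91 and -0.60 in those of Ets1 null, and 1.26, 1.04 and 2.49 in those of Ets2 null. Angptl4 read 1.87 and 0.93 in the arrays labelled Ets1/2 null. Ets1 null arrays lay below every other array, with a difference from wild type of -3.23 ± 0.47 (95% interval -4.30 to -2.16, adjusted p = 0.0982) that passed with array weights (-3.07, adjusted p = 0.0123). The arrays labelled Ets1/2 null differed from wild type by -1.28 ± 0.53 (adjusted p = 0.102), which was called only in the deposited values (-2.00, adjusted p = 0.0157). They were higher than Ets1 null by 1.95 ± 0.53 (adjusted p = 0.0238), though not in the deposited values (1.19, adjusted p = 0.109). The last call was lost without Ets1 null 2 (1.77, 0.0718), Ets1 null 3 (1.92, 0.0643) or Ets1/2 null 1 (1.48, 0.149). Angptl6 read -1.83, -2.12 and -1.92 in the wild-type arrays, -1.99, -2.20 and -1.86 in those of Ets1 null, and -1.44, -1.63 and -1.48 in those of Ets2 null. Angptl6 read -0.63 and -0.21 in the arrays labelled Ets1/2 null. The last group lay above all other arrays, by 1.54 ± 0.18 against wild type (2.91-fold, adjusted p = 0.000684; deposited 0.82, adjusted p = 0.00475), and this call held when each array was left out in turn. The Tie2 ligand Angpt1 read -3.04, -2.96 and 0.88 in the wild-type arrays, -4.62, -4.25 and -5.18 in those of Ets1 null, and -4.52, -2.47 and 1.22 in those of Ets2 null. Angpt1 read -2.06 and -3.93 in the arrays labelled Ets1/2 null. Wild type 3 and Ets2 null 3 stood far above the rest, and the Ets1 null difference of -2.98 ± 1.46 did not pass (adjusted p = 0.591). Angpt2, the context-dependent Tie2 antagonist, and Angpt4 differed from wild type by between -0.22 and 0.48 and were not called in the centred values.

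Vegfb, a ligand of VEGFR1, read 0.93, 0.81 and 1.06 in the wild-type arrays, 0.90, 1.65 and 1.25 in those of Ets1 null, and 0.40, 0.42 and 1.76 in those of Ets2 null. Vegfb read -0.78 and -0.17 in the arrays labelled Ets1/2 null. The last group lay below all other arrays, and Vegfb fell by 1.41 ± 0.41 against wild type (2.65-fold, adjusted p = 0.0314), by 1.74 against Ets1 null (adjusted p = 0.0136) and by 1.33 against Ets2 null (adjusted p = 0.0360), in deposited values as well. The call against wild type was lost without any 1 of the wild-type arrays (-1.41, -1.47 and -1.34), Ets1/2 null 1 (-1.11, adjusted p = 0.163) or Ets1/2 null 2 (-1.71, 0.0574), and that against Ets1 null without Ets1/2 null 1 (-1.44, 0.0883). The call against Ets2 null was lost without wild type 1 or 2, Ets1 null 3, or Ets1/2 null 1 or 2 (-1.64 to -1.03), and the value was -0.88 without Ets2 null 3 (adjusted p = 0.0416). Pgf, another VEGFR1 ligand, and Vegfc and Vegfd, the ligands of the lymphatic receptor VEGFR3, were not called in the centred values. Their differences from wild type lay between -1.0 and 0.85. Apln, the ligand of the apelin receptor, read 0.60, 0.37 and 0.03 in the wild-type arrays, -0.48, -0.38 and -0.05 in those of Ets1 null, and -0.77, -0.92 and -0.41 in those of Ets2 null. Apln read 0.45 and 1.5 in the arrays labelled Ets1/2 null. Both single-null groups lay below wild type without overlap (-0.63 ± 0.28, adjusted p = 0.568, and -1.03 ± 0.28, adjusted p = 0.114; with array weights the latter was -1.26, adjusted p = 0.00938). In the arrays labelled Ets1/2 null Apln was higher than in Ets2 null by 1.68 ± 0.31 (adjusted p = 0.00494), in deposited values as well, and higher than in Ets1 null by 1.28 ± 0.31 (adjusted p = 0.0160; deposited 0.52, 0.196), the latter lost without Ets1/2 null 2 (0.76, 0.102). Met, the HGF receptor, read 2.5, 1.39 and 1.49 in the wild-type arrays, 1.95, 2.22 and 1.91 in those of Ets1 null, and 1.22, 1.33 and -0.08 in those of Ets2 null. Met read 1.83 and 2.65 in the arrays labelled Ets1/2 null. Ets2 null arrays lay below wild type, with a difference of -0.97 ± 0.43 (adjusted p = 0.262) that was -0.52 without Ets2 null 3 and -0.61 without wild type 1. The second Met probe set, unlike the first (0.45), fell by 2.37 in the arrays labelled Ets1/2 null (adjusted p = 0.00833 over all probe sets). Hgf differed from wild type by -0.95 ± 0.55, -0.66 ± 0.55 and -0.81 ± 0.62, none of which passed.

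Besides single arrays, other settings ended calls against wild type in the arrays labelled Ets1/2 null. The Grb10 call was lost with the mean of its probe sets (-2.41, adjusted p = 0.0582), with only the compared arrays (-3.82, 0.0853), with array weights (-4.52, 0.0611) and with a term for male arrays (-4.07, 0.0522). That against Ets2 null was lost under the same settings (-4.52 to -2.40, adjusted p from 0.0572 to 0.222). The Igf1r call was lost with quantile normalization (0.48, adjusted p = 0.0818), only the compared arrays (0.67, 0.106) and array weights (0.57, 0.0650). Fgfbp3 lost its call with only the compared arrays (1.02, adjusted p = 0.0590) and array weights (0.91, 0.0653), Igf2bp3 with only the compared arrays (1.14, 0.0747) and other choices of probe set (0.77 and 1.09), Fgfr1op2 with the second brightest probe sets (0.10, 0.679), and Vegfb with the male term (-1.41, 0.0692). Angptl6 kept its call against wild type under every setting run for it. The filter on dim genes was not among these settings. It removed Angptl6, Igf2bp3 and Fgfbp3, whose highest group means (-0.42, -0.71 and -2.05, centred) lay below the array median. Differences that did not pass also moved by over 1.5 times without 1 array. Igfbp4 in Ets2 null ran from 0.89 (without wild type 3) to 2.74 (without wild type 1), and Pdgfd in Ets1 null from 0.98 (without Ets1 null 2) to 2.86 (without Ets1 null 1). Hbegf in the arrays labelled Ets1/2 null was 0.17 without Ets1/2 null 2 and 2.40 without Ets1/2 null 1, and Angpt1 in Ets1 null was -1.68 without wild type 3.

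Set against the single nulls, the arrays labelled Ets1/2 null gave 11 called members against Ets1 null (9 higher and 2 lower; 28.7% of all genes called, 17.4% higher and 11.3% lower) and 10 against Ets2 null (5 higher and 5 lower; 30.3%, 17.1% higher and 13.2% lower). Both comparisons use the same arrays labelled Ets1/2 null. In both sets of values the calls numbered 4 (Fgf7, Angptl6, Egfr and Vegfb; 13% of genes) and 7 (Fgf7, Apln, Egfr, Fgfrl1, Igf2r, Grb10 and Vegfb; 16.2%). The comparison with Ets2 null also sets arrays read as female against arrays read as male, and with a term for male arrays 0 of the 10 members were called and 2.37% of all genes were. Wild type is the only group with both readings, so this term was estimated from wild type 1 against wild type 2 and 3. A call lost under it does not show what part sex had, and that part was not tested. Between arrays the groups did not overlap in 22 members against Ets1 null (58.3% of all genes did not) and in 17 against Ets2 null (55.4%).

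The design also asks whether Ets2 loss acts differently with and without Ets1. By genotype both groups labelled Ets1-/- are Ets2fl/fl, while Ets2 null is Ets2fl/fl and wild type is Ets2+/+. Any difference between these Ets2 alleles therefore enters the interaction and cannot be told apart from it. The interaction term, the arrays labelled Ets1/2 null minus Ets1 null compared with Ets2 null minus wild type, was called in 7 members (6 positive and 1 negative; 14.5% of all genes called, 7.54% positive and 6.94% negative) and in both sets of values in 4, Fgf7, Angptl4, Apln and Egfr (8.44% of genes). Fgf7 had the largest, 5.14 ± 0.79 (adjusted p = 0.00504): the difference on Ets2 loss was -2.71 in the Ets1+/+ groups and 2.43 in the groups labelled Ets1-/-. For Apln the term was 2.31 ± 0.42 (adjusted p = 0.00944), from -1.03 to 1.28, and for Angptl4 3.03 ± 0.71 (adjusted p = 0.0234), from -1.08 to 1.95. Egfr ran the other way, -1.01 ± 0.24 (adjusted p = 0.0249), from 0.36 to -0.66. In Fgf7 and Apln every array left out in turn kept the call. In Angptl4 it was lost without Ets1 null 2 or 3, Ets2 null 1 or 2, or Ets1/2 null 1 (2.56 to 3.0), and in Egfr without wild type 1, Ets1 null 1, 2 or 3, or Ets1/2 null 1 (-1.03 to -0.83). Male readings were found in every Ets2 null array and in wild type 1, and in none of the arrays labelled Ets1-/-. With a term for male arrays the interaction was called in 3 members, Fgf7, Apln and Angptl6, and in 5.65% of genes, and the calls of Angptl4 (3.04, adjusted p = 0.0904) and Egfr (-1.04, adjusted p = 0.0899) were lost. That of Egfr was also lost with the mean of its probe sets (-1.03, adjusted p = 0.271) and with the second brightest (-1.61, adjusted p = 0.291). In the arrays labelled Ets1/2 null, the centred values of Ets2 itself were not lower as a group than in Ets1 null, as given above.

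**Figure D4:**
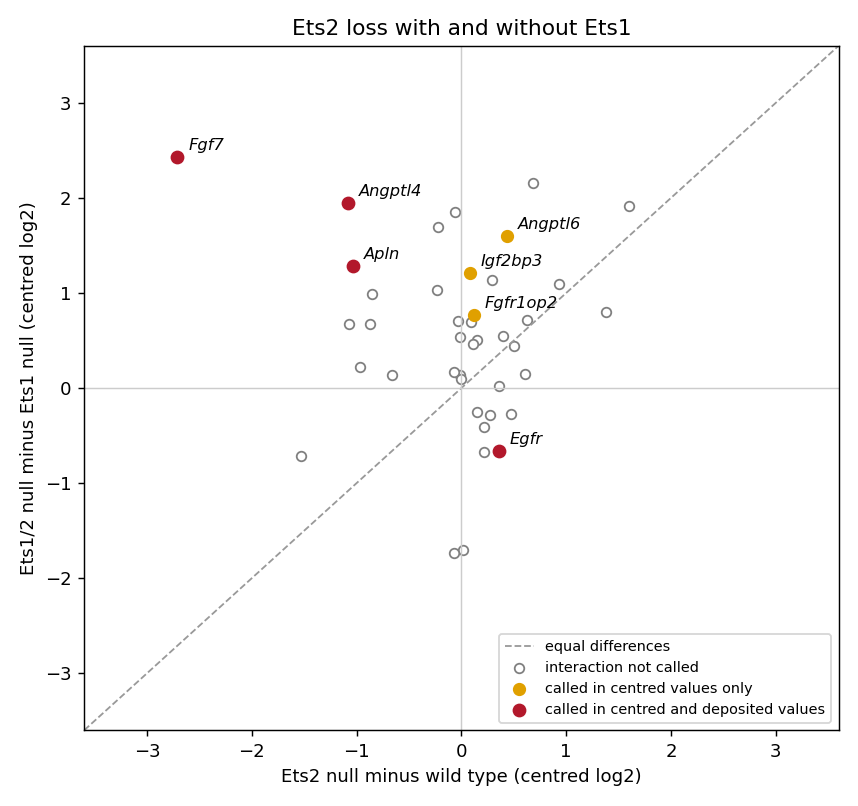
Difference on Ets2 loss in the groups labelled Ets1-/- (y axis, arrays labelled Ets1/2 null minus Ets1 null) against that in the Ets1+/+ groups (x axis, Ets2 null minus wild type), in centred log2 units, 1 point per member; the dashed line marks equal differences. Fgf7, Angptl4 and Apln lie upper left, negative in the Ets1+/+ groups and positive in those labelled Ets1-/-, and Egfr lies lower right.

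Other genes of these pathways were taken from 5 lists chosen with earlier results of these data known. In Ets1 null and Ets2 null, 0 genes of any list were called against wild type, where limma called 1 and 48 genes on the whole table. At an unadjusted p under 0.05, 7 and 15 of their 116 genes were counted, where 8.71% and 18.9% of all genes were. In Ets1 null the largest differences were in the TAM receptor ligand Gas6 (-3.35 ± 1.09, adjusted p = 0.474). In Ets2 null the FGF and ERK response genes Ier3 and Etv4, the latter an ETS factor induced by FGF, differed by -3.13 ± 0.70 (adjusted p = 0.0819) and -1.55 ± 0.46 (adjusted p = 0.132). Differences of that size were not confined to this list. Of the other ligands and receptors, Gas6 differed by 1.88 ± 1.09 in Ets2 null (adjusted p = 0.379) and Nrp2 by -1.61 ± 0.52 (adjusted p = 0.157).

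In the arrays labelled Ets1/2 null, 4 of 20 other ligands and receptors rose and 1 fell: Csf1r, Insr (the insulin receptor, 1.42 ± 0.35, adjusted p = 0.0164), Vegfa (1.61 ± 0.47, adjusted p = 0.0328) and Pdgfrl were higher and Tyro3 lower (-1.56 ± 0.25, adjusted p = 0.00293), with only Tyro3 also called in the deposited values. Of 27 adaptors and relay genes 2 rose and 3 fell, led by the RAS exchange factor Sos2 (1.90 ± 0.17, adjusted p = 0.000275) and the docking protein Dok4 (-1.51 ± 0.20, adjusted p = 0.00127); Sos2, Dok4, Sh2b1 and Ptpn1 were also called in the deposited values. Of 29 feedback inhibitors and turnover genes 5 rose and 5 fell, and in the deposited values the 5 that fell were also called; the ubiquitin ligase genes Cblc and Cbl, which end receptor signalling, fell by 0.82 and 0.80 while Cblb rose by 1.22 in the centred values only (deposited 0.50, adjusted p = 0.162). Of 27 release and heparan sulfate genes 1 rose and 3 fell: Adam17, the protease that sheds EGF ligands, rose by 1.03 in the centred values only (deposited 0.31, adjusted p = 0.281), and the heparan sulfate genes Extl3, Gpc1 and Ext2 fell by 1.36, 1.25 and 0.73 and were also called in the deposited values. Of 19 FGF and ERK response genes 2 rose and 2 fell: Etv5 (-1.35 ± 0.38, adjusted p = 0.0287) and Etv4 (-1.74 ± 0.51, adjusted p = 0.0327) were lower in both sets of values, and Egr2 (2.32) and Spred2 (1.0) higher in the centred values only. Some genes stand in 2 lists; counted once, 27 of 116 genes of the lists were called, a smaller share than the 28.3% of all genes. The median centred difference was between -0.10 and 0.37 in the 5 lists and 0.11 over all genes.

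Probe sets of 1 gene did not always move together. Of the 41 members, 20 have more than 1 probe set, and the differences from wild type had both signs in 5 of them in Ets1 null, 6 in Ets2 null and 8 in the arrays labelled Ets1/2 null. The median distance of the other 35 probe sets from their gene's brightest was 0.22, 0.25 and 0.80 in the 3 comparisons, and it passed 1 in 5, 0 and 12 of them. The widest gap was 4.57, in Fgfr1 in the arrays labelled Ets1/2 null.

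**Figure D5:**
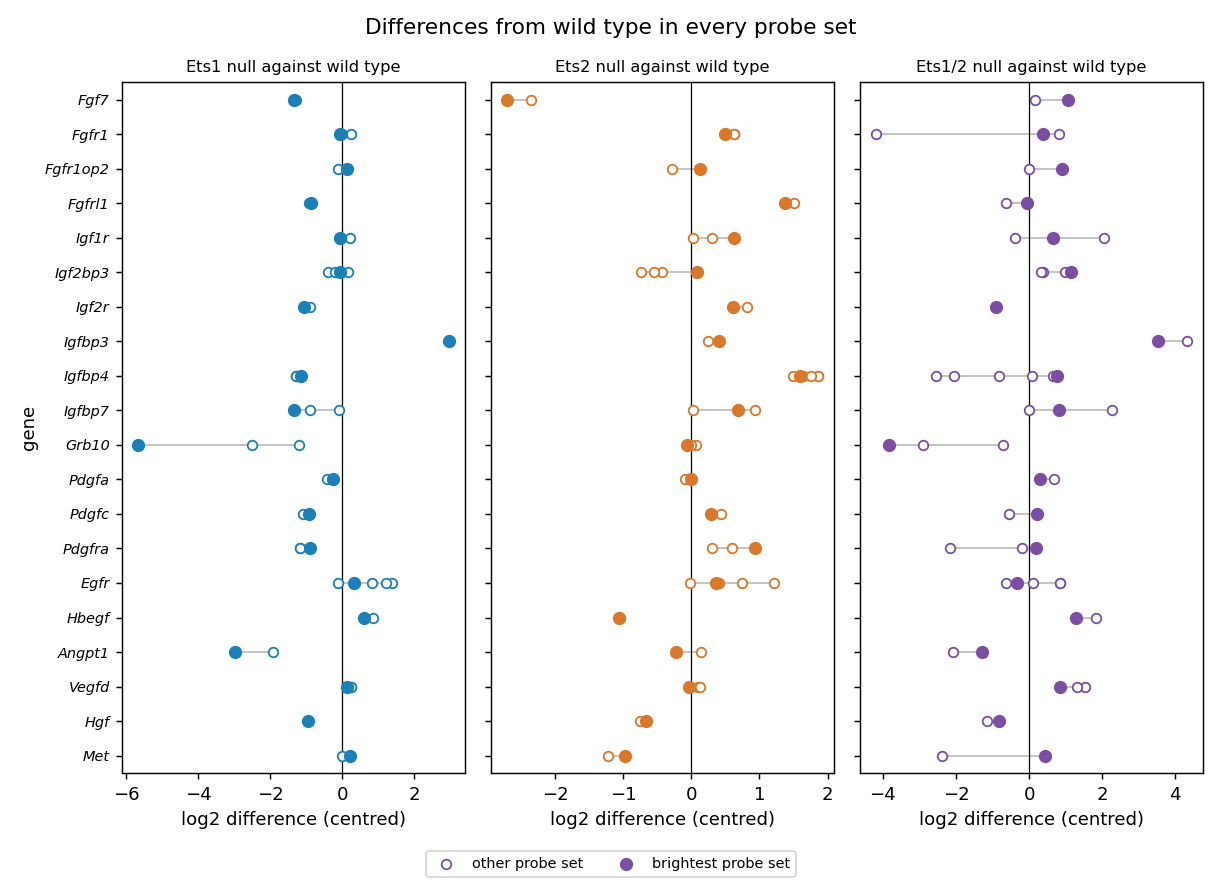
Difference from wild type in centred log2 values (x axis, different scales) in each probe set of the 20 members with several; filled points are the brightest probe set, open points the others, joined by a line. In the third panel open points of Fgfr1, Igfbp4, Pdgfra and Met lie more than 2 units to the left of the filled ones.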

How the data were processed

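RNA of cultured aortic endothelial cells was measured on Affymetrix arrays. The deposited log2 values are those of the series table; RMA is the only processing tool given, per the submitters' processing notes, and its version is not given in the sources used here. A probe set was used where the platform annotation gives it 1 symbol (18824 of 20523; 549 have several and 1150 none), and the brightest over the 11 arrays used stands for its gene. Centring subtracted from each array its median over the 11015 genes. limma 3.58.1 in R 4.3.3 fitted 1 mean per group over all 11 arrays (lmFit, eBayes, 7 residual degrees of freedom, two-sided, Benjamini-Hochberg over 11015 genes); the procedure was tested on simulated data. The number of arrays limits the precision. Values in every array are given for members called against wild type and for the 8 with the largest difference from wild type in each comparison; of the pathway lists, up to 4 called genes, or otherwise the 2 with the largest differences, were open to naming. Members and lists were chosen with earlier results of these data known. Same-numbered arrays of different groups did not deviate together (15 pairs, r of deviations from group means -0.32 to 0.1, none over 0.1), so numbers were not taken as pairs. Alternatives: uncentred values, quantile normalization, other probe set choices, a filter on dim genes, array subsets and weights, a replicate block, a term for male arrays, another variance model, a fold minimum and leaving out each array.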

Additional observations from a re-analysis of the deposited data

Results flagged for a closer look

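In 7 members the difference on Ets2 loss was not the same in the Ets1+/+ groups and in those labelled Ets1-/-, by limma's interaction term (adjusted p under 0.05 over all genes, centred log2 values; 14.5% of all genes passed it). In Fgf7 the term was 5.14 (adjusted p = 0.00504), with -2.71 in the Ets1+/+ groups and 2.43 in the others. In Angptl4 it was 3.03 (adjusted p = 0.0234; -1.08 and 1.95), and in Apln 2.31 (adjusted p = 0.00944; -1.03 and 1.28). In Egfr it was -1.01 (adjusted p = 0.0249; 0.36 and -0.66).

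The other 3 were called in the centred values only. In Angptl6 the term was 1.15 (adjusted p = 0.0144; 0.44 and 1.60) and 0.41 in the deposited values. In Igf2bp3 it was 1.13 (adjusted p = 0.0490; 0.08 and 1.21) and 0.39 in the deposited values, and leaving out any 1 of 9 arrays ended the call. In Fgfr1op2 it was 0.65 (adjusted p = 0.0286; 0.12 and 0.77), and -0.10 in the deposited values; leaving out any 1 of 6 arrays ended the call (0.61 to 0.67). With a term for male arrays, which was estimated within wild type only, the calls of Angptl4, Egfr, Igf2bp3 and Fgfr1op2 were lost. These terms use the 2 arrays labelled Ets1/2 null, in which the brightest probe sets of Ets1 (centred) and Ets2 were not lower than in wild type as a group.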

How the results depend on the processing

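Across the alternatives, 917 of 1106 single-member values kept their direction and side of the threshold, 170 lost a call, 12 gained one and 7 turned sign or reached 0. The counts of called members that moved by over 1.5 times were these. A percentage beside a count is the share of all genes called in that comparison and setting. Counts without such a share, here and below, are not set against the table as a whole. For Ets1 null against wild type (0, 0.00908%), array weights gave 2 (1.42%). For Ets2 null against wild type (0, 0.436%), the second brightest probe set gave 1 and array weights 4 (9.85%). For Ets1/2 null against wild type (7, 28.3%), deposited values gave 11 (45.9%) and the second brightest probe set 11. There the filter on dim genes gave 4, only the compared arrays 3 and array weights 4 (23.7%). Against Ets1 null (11, 28.7%) the filter gave 7 and a log2 fold of at least 1 gave 7. Against Ets2 null (10, 30.3%) only the compared arrays gave 6, array weights 6 (28.7%) and the male term 0 (2.37%). For the interaction (7, 14.5%) the filter gave 4 and the male term 3 (5.65%). With each array left out in turn, the counts stayed at 0 for both single nulls and ran from 5 to 7, 4 to 11, 7 to 11 and 3 to 8 for the other comparisons in that order. The count against Ets1 null was 6 without Ets1 null 2 and 4 without Ets1/2 null 1. That of the interaction was 3 without Ets1 null 2 or Ets1 null 3, and 4 without wild type 1, Ets2 null 1, Ets2 null 2 or Ets1/2 null 1.

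The replicate numbers did not pair the arrays; with the replicate block the counts were 1, 0, 4, 8, 8 and 4 in the same order of comparisons, and the 3 calls lost against wild type were those of Grb10, Igf1r and Vegfb. The values that turned sign or reached 0 were Hbegf in Ets2 null without Ets2 null 3 (0.21; range -1.84 to 0.21 with each array left out), Igfbp4 in Ets2 null with the male term (-0.67), Angpt1 in Ets1/2 null without wild type 3 (0; range -2.23 to 0), and, in the deposited values, Igf1r against wild type (-0.05) and Ets1 null (-0.04), Igfbp5 against Ets1 null (-0.30) and the interaction of Fgfr1op2 (-0.10). The filter tests fewer genes, the compared-array fits have fewer arrays, and deposited values keep the lower median of the arrays labelled Ets1/2 null; of the other changes the cause was not tested. Groups of 2 or 3 arrays limit the precision, and the table gives no signal over background.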

Other observations

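Ets2 null 3 stood apart from the other Ets2 null arrays in several ligand genes and 1 receptor. Hbegf read -2.28 in it (centred log2) against 1.31 and 1.83, Ereg -1.06 against 2.36 and 2.21, and Met -0.08 against 1.22 and 1.33. It was the lowest of all 11 arrays in 5 members, Hbegf, Ereg, Met, Pdgfa and Igfals. Of these, Pdgfa and Igfals spanned only 1.05 and 0.47 over all arrays. The share of all genes in which this array was lowest was not analysed here, so the count is not a result about the members. In the same array Angpt1 read 1.22 against -4.52 and -2.47, and Angpt2 1.79 against -0.93 and -0.87, both the highest of all arrays; it also had the highest or joint highest value in Egfr, Fgfr1, Fgfrl1, Igf1r, Igf2r, Igfbp7 and Vegfb. These genes were picked after their values were seen, and no test was made.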
